A study of Homo sapiens with 36 samples.

Results

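The comparison described here set MDA-MB-231 cells that received siRNAs against both YAP and TAZ (YAPi_TAZi, 2 libraries) against cells of the same line that received the siRNA against YAP alone (YAPi, 2 libraries) or TAZ alone (TAZi, 2 libraries), 6 of the 36 libraries of the series. Members were chosen by the sample titles. The MDA-MB-231 line comes from a breast cancer without estrogen receptor, progesterone receptor or HER2 amplification, and the labels leave its transformation status blank. One tamoxifen protocol is attached to every sample of the series, and the sources do not say that MDA-MB-231 cells received it. All 6 libraries carried an siRNA, none was an untreated reference, and the question was which RNAs differed when both paralogs were depleted and not only one of them. The control siRNA libraries with the same title prefix were left out, because 6 measured RNAs without a poly(A) tail summed to 180.3 and 267.9 TPM (expression scaled for transcript length and depth) in them and to between 164099.3 and 421399.0 TPM in the 6 libraries compared. Without a control of the same kind, the effect of each single knockdown, and whether the double knockdown was more than the sum of the single ones, could not be measured. How much siRNA each group received is not given in the sources used here, so the number of siRNAs and the second target cannot be told apart. A TEADi group (siRNA against TEAD, members not stated, 2 libraries) and the 6 tamoxifen-treated ER-Src libraries of Ctrli, YAPi and TAZi serve below as further readings of the same genes.

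YAP (gene YAP1) and TAZ (gene WWTR1) are paralogous transcriptional co-activators. They have no DNA-binding domain of their own and reach DNA mainly through the TEAD factors, often beside AP-1. The Hippo kinases phosphorylate both proteins and keep them out of the nucleus, and among the best known YAP/TAZ targets are genes for matrix-associated secreted proteins, for feedback inhibitors of the pathway and for cell division.

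The sources list a catalogue pool for each target and 1 further sequence each. Which of these reached the MDA-MB-231 cells is not stated, so the listed sequences are shown only as the designed siRNAs that the sources spell out. Both are 19 bases long and are given 5′ to 3′ as the sense strand.
YAP1 siRNA: gacaucuucuggucagaga
TAZ siRNA: acguugacuuaggaacuuu
The first matched the coding sequence of YAP1 in exon 2 of 9 (GRCh38, chr11:102114365-102114383, plus strand), and also the pseudogene YAP1P1. The second matched the coding sequence of WWTR1 in exon 7 of 7 (GRCh38, chr3:149520887-149520905, minus strand) and no other annotated gene. Neither reverse complement occurred in a GENCODE version 44 transcript.

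Each target was low wherever its own siRNA was given. YAP1 (ENSG00000137693.13, GRCh38 chr11:102110447-102233424) stood at 47.8 and 64.1 normalized counts in the YAPi libraries, at 433.4 and 482.8 in the TAZi libraries and at 56.6 and 55.1 in the YAPi_TAZi libraries. Its level in the double knockdown was within the YAPi range and far below both TAZi libraries. The log2 difference from TAZi was -3.05 ± 0.22 (SE, n = 2 against 2, DESeq2 adjusted p = 2.7e-41), and that from YAPi was -0.01 ± 0.25 (adjusted p = 0.99). WWTR1 (ENSG00000018408.14, GRCh38 chr3:149517235-149736714) stood at 90.7 and 144.2 normalized counts in YAPi, 11.6 and 7.04 in TAZi, and 29.0 and 13.5 in YAPi_TAZi. All 4 libraries with the TAZ siRNA were below both YAPi libraries, and both YAPi_TAZi libraries were above both TAZi libraries. Against YAPi the double knockdown was lower by a log2 difference of -2.54 ± 0.50 (SE, adjusted p = 9.7e-06), a call lost with offsets for effective length (-1.82, adjusted p = 0.13), in a separate run of these groups (-2.52, adjusted p = 0.022) and without replicate 2 of YAPi_TAZi (-1.92, adjusted p = 0.11). Against TAZi the log2 difference was 1.18 ± 0.59 (SE, adjusted p = 0.19), so a weaker TAZ knockdown in the double libraries was not detectable at 21 and 14 raw counts. TEAD1, one of the DNA-binding partners, lay between 349.2 and 391.7 normalized counts in the double knockdown and between 450.5 and 557.4 in the single ones (log2 fold change -0.41 ± 0.17, DESeq2 adjusted p = 0.12). In the fit with 3 groups it was called lower than TAZi (-0.52, adjusted p = 0.00027) and not called against YAPi (-0.29, adjusted p = 0.086). TEAD2, TEAD3 and TEAD4 had log2 fold changes of -0.10, 0.18 and -0.69, none of them called against the single knockdowns together, and TEAD4 had too few counts for an adjusted p.

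**Figure D1:**
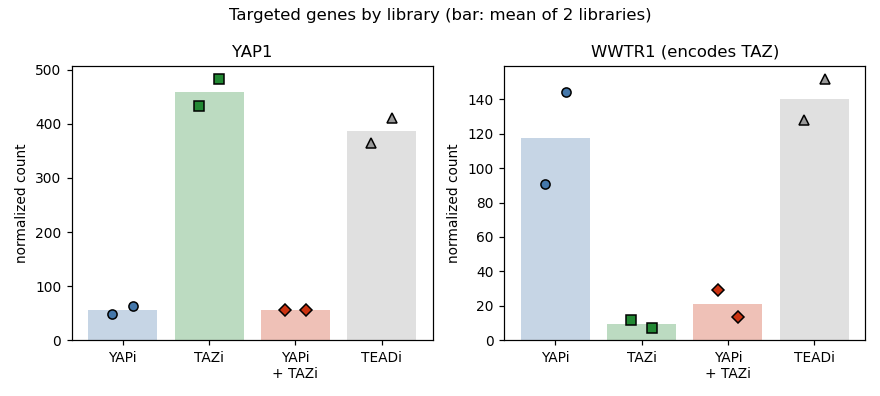
Normalized counts (linear axis from 0) of YAP1 and WWTR1 in each library of YAPi, TAZi, YAPi_TAZi and TEADi, with bars for the mean of 2 libraries. YAP1 stays at or below 64.1 wherever the YAP siRNA was given, and WWTR1 at or below 29.0 wherever the TAZ siRNA was given.

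Depth was 1411304 to 2784605 expected counts per library, lowest in the YAPi_TAZi replicate 1 library, which limits what could be seen of genes with few reads. Replicate numbers 1 and 2 also differed in the deposited lengths, with a median gap between gene length and effective length of 48.0 and 74.6 bases, and the first principal component (39.3% of variance over 6928 genes) separated the numbers while the second (36.1%) separated double from single knockdowns. The replicate number was kept as a block. Of 8 markers listed for MDA-MB-231, 7 were present at 24.8 to 763.3 TPM in every library and SPARC, at 0 to 0.59 TPM, was close to absent. Of 5 markers listed as low or absent there, ESR1, PGR and CDH1 reached at most 1.27 TPM, whereas ERBB2 stood at 8.37 to 15.3 and EPCAM at 3.1 to 12.1 TPM. Of 10 MCF-10A markers TP63, DSG3 and SERPINB5 reached at most 0.48 TPM, KRT14 and KRT6A at most 2.96, KRT5, KRT17 and KRT15 at most 11.5, and LAMB3 and S100A2 stood at 26.3 to 84.2 TPM.

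Of 10124 genes tested, 135 (1.33%) rose and 355 (3.51%) fell in the double knockdown against the single knockdowns together (DESeq2, adjusted p under 0.01), with median log2 fold changes of 0.97 and -1.33 among those called. The median over all tested genes was -0.02. At least 2-fold changes were made by 60 of the genes that rose and 260 of those that fell, and 4-fold changes by 4 and 45. In each replicate number taken by itself, all 490 called genes moved in the called direction, with a median gap of 0.16 on the log2 scale between the numbers. Either double library mattered to the counts. Without replicate 1 of YAPi_TAZi 9 genes rose and 72 fell, and without its replicate 2 the numbers were 9 and 64. Leaving out 1 single library gave 72 to 77 genes that rose and 200 to 222 that fell. Protein-coding genes made up 97.3% of the calls and 95.5% of the tested genes.

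**Figure D2:**
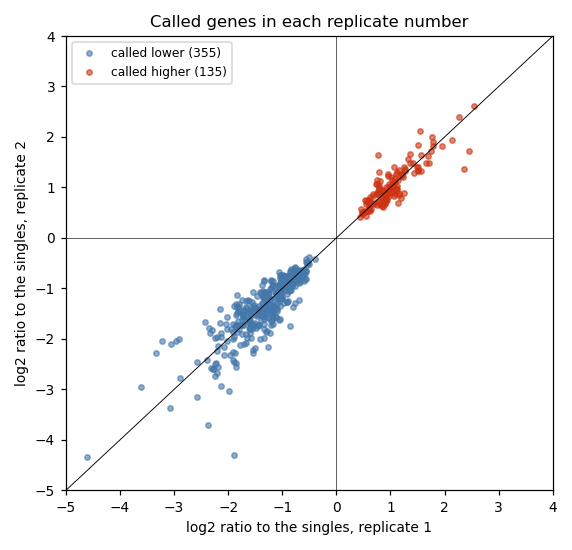
Log2 ratio of the YAPi_TAZi library to the mean of the YAPi and TAZi libraries within replicate 1 (x axis) and within replicate 2 (y axis) for the 490 called genes, 355 lower and 135 higher, with the line of equality. Each point lies in the quadrant of its call, and the choice of called genes used these same values.

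Against each single knockdown by itself, in a fit with 3 groups, the double knockdown had 373 genes higher (3.68%) and 709 lower (7.00%) than YAPi, and 363 higher (3.77%) and 606 lower (6.29%) than TAZi. Without the replicate block the second pair became 231 and 491. Both comparisons use the same YAPi_TAZi libraries and are not independent. Between the single knockdowns, 271 genes (2.55%) were higher in YAPi and 158 (1.49%) higher in TAZi. Where the single knockdowns differ, the fit that joins them counts that difference as spread, and fitted as 3 groups the same contrast called 434 genes higher and 733 lower.

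The largest falls were those of the YAP/TAZ targets ANKRD1, CCN2 and CCN1. ANKRD1 (ENSG00000148677.6, GRCh38 chr10:90912096-90921087), which encodes an ankyrin repeat protein of muscle, had 391.0 and 470.8 normalized counts in YAPi, 463.5 and 463.1 in TAZi and 16.6 and 22.2 in YAPi_TAZi. Single knockdowns of either factor were within 391.0 to 470.8, and the double knockdown was 22.8-fold lower (log2 fold change -4.51 ± 0.30 SE, adjusted p = 4.9e-47). CCN2 (ENSG00000118523.5, GRCh38 chr6:131948176-131951372), the connective tissue growth factor gene, had 144.3 and 159.3 in YAPi, 80.0 and 107.7 in TAZi, and 8.28 and 16.4 in the double knockdown. CCN2 fell by 3.31 on the log2 scale (SE 0.47, DESeq2 adjusted p = 3.9e-10). CCN1 (ENSG00000142871.15, GRCh38 chr1:85580761-85584589), which encodes the matricellular protein CYR61, had 620.2 and 632.7 in YAPi, 527.2 and 537.7 in TAZi, and 67.6 and 56.1 in YAPi_TAZi, a log2 fold change of -3.24 ± 0.22. For each of these 3 genes both double libraries were below all 4 single libraries, which was a condition for naming the largest falls. All 355 genes that fell met it.

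Of the 23 genes listed as YAP/TAZ targets, 21 were tested, 9 fell, none rose, and the median log2 fold change was -0.90 against -0.02 over all tested genes. By edgeR 7 fell, and without replicate 1 or 2 of YAPi_TAZi 5 and 6 did. Beside the 3 genes above, the members that fell were TGFB2 (-2.06), a TGF-beta ligand that shares 34.2% of its exonic bases with other genes, FJX1 (-1.65), F3 (-1.61), the tissue factor that starts coagulation, AMOTL2 (-1.61), an angiomotin that binds YAP, CCDC80 (-0.92) and AJUBA (-0.74), a LIM protein that inhibits LATS kinases. F3 stood at 735.2 to 952.2 normalized counts in the single libraries and at 277.4 and 274.6 in the double ones. The 12 tested members that were not called ran from -1.70 for GADD45A (adjusted p = 0.036) and -1.37 for RBMS3 through LATS2 (-0.90), PTPN14 (-0.70), CRIM1 (-0.48), ASAP1 (-0.45), ARHGEF17 (-0.38), NT5E (-0.24), MYOF (-0.17) and DOCK5 (-0.05) to IGFBP3 (0.31), with AXL at -0.76. FOXF2 and NUAK2 had mean normalized counts of 7.15 and 5.14 and no adjusted p.

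Some of these uncalled members already differed between the single knockdowns. AXL, a receptor tyrosine kinase, had 2781.9 and 2586.0 normalized counts in YAPi, 1451.9 and 1356.9 in TAZi, and 1164.9 and 1243.7 in the double knockdown. Its log2 difference was -1.15 against YAPi (adjusted p = 1.8e-42) and -0.22 against TAZi (adjusted p = 0.062), and the YAPi and TAZi libraries themselves differed by 0.94 (adjusted p = 4.7e-29). PTPN14, a phosphatase that restrains YAP, gave -0.96 against YAPi (adjusted p = 5.8e-10) and -0.38 against TAZi (adjusted p = 0.061). NT5E, the CD73 ectonucleotidase, gave -0.43 (adjusted p = 6.8e-07) and -0.03 (adjusted p = 0.89), and MYOF, a membrane repair protein, -0.40 (adjusted p = 0.00067) and 0.09 (adjusted p = 0.68). For these 4 genes the double knockdown was below YAPi, and its difference from TAZi was not called. INSIG1, a brake on sterol synthesis, showed the other order, with 1120.4 and 1237.9 in YAPi, 398.6 and 461.0 in TAZi, and 853.0 and 1136.3 in YAPi_TAZi.

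Among genes listed as Hippo kinases and YAP inhibitors, 3 of 18 tested members fell and 1 rose (median log2 fold change -0.22). FRMD6 and WWC1, upstream activators of the LATS kinases, fell together with AMOTL2 (log2 fold changes -1.48 and -1.5). FRMD6 had 629.9 to 838.2 normalized counts in the single libraries and 254.0 and 260.1 in the double ones. MAP4K4, a kinase that acts on LATS, rose (0.68, DESeq2 adjusted p = 3.1e-05). Of 5 tested TEAD and VGLL genes VGLL4, a TEAD-binding repressor, rose (0.96, adjusted p = 0.0039), from 92.9 to 132.6 normalized counts in the single libraries to 194.6 and 218.6. Exons of 2 other genes cover 23.8% of VGLL4, and edgeR did not call it. Of 7 tested AP-1 genes JUN rose (0.64, adjusted p = 0.0012), with 297.0 to 325.7 normalized counts in the single libraries against 490.0 and 478.7. The median of this list was 0.64, and 5 members were higher and 1 lower at an unadjusted DESeq2 p under 0.05. The call of JUN was lost with effective length offsets (0.61, adjusted p = 0.018) and with any 1 library left out (0.59 to 0.67). FOSL2 and JUNB had log2 fold changes of 0.38 and 0.80 and were not called (adjusted p = 0.13 and 0.067). In the fit with 3 groups FOSL2 was called higher than YAPi (0.53, adjusted p = 4.7e-07) and JUNB higher than TAZi (0.99, adjusted p = 0.0024). By that fit 2 members of the list were higher and 1 lower than YAPi, and 2 of 6 tested were higher than TAZi. FOSL1 had a log2 fold change of -0.93 against the single knockdowns together and was not called (DESeq2 adjusted p = 0.059).

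Promoters of target genes are printed here because the letters of known binding motifs can be read in them. The sequences are from RefSeq (GRCh38.p14), 5′ to 3′ from 250 bases before to 50 after the gene's start. GGAATG is the TEAD core motif and TGANTCA the AP-1 motif, both searched on either strand. Capitals mark these letters, with GGAATG in both promoters and 1 AP-1 match, TGATTCA, in ANKRD1.
ANKRD1 (chr10:90921038-90921337, minus strand): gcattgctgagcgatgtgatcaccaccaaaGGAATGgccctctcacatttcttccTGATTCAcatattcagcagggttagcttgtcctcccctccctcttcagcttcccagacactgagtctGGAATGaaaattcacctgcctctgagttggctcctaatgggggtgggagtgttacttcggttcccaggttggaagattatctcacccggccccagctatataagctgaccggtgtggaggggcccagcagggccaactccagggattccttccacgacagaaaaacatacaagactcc
CCN2 (chr6:131951323-131951622, minus strand): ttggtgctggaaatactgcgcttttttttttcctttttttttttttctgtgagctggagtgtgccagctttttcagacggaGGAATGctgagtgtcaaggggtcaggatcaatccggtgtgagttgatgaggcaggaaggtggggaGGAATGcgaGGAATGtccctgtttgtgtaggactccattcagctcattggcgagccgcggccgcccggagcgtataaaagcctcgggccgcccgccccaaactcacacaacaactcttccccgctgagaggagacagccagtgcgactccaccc
ANKRD1 held 2 matches to GGAATG, beginning 220 and 128 bases before the start, and CCN2 held 3, at 169, 104 and 95 bases. Of the 12 genes with the largest falls 9 were found in the promoter table, too few to give a share, and 3 of those held GGAATG (ANKRD1, CCN2 and DKK1). None of the 12 genes with the largest rises did. Of all promoters listed, 14.0% held it, and among tested genes 10.6% did. The share was 12.9% of the 287 promoters found for genes that fell and 8.04% of the 112 found for genes that rose. For the target list only 15 of 21 promoters were found, too few to give a share.

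Genes of DNA replication fell together. Of 25 tested members of the DNA replication and E2F list, 21 fell and none rose (median -1.55). By edgeR 16 fell, and without replicate 1 or 2 of YAPi_TAZi 8 and 7 did. They included the origin factors CDC6 (-2.10), CDC45 (-2.62), MCM10 (-1.95) and GINS2 (-2.33), the helicase subunits MCM3 (-1.43) and MCM7 (-1.47), the ribonucleotide reductase subunits RRM1 (-1.48) and RRM2 (-1.61), and the transcription factor E2F1 (-2.09). RRM2 had 370.5 and 451.2 normalized counts in YAPi, 381.2 and 431.4 in TAZi and 131.1 and 136.4 in YAPi_TAZi. The single libraries overlapped each other and the double ones lay apart from them. For FEN1, the flap endonuclease, 270.1 to 398.6 in the single libraries compared with 109.0 and 111.2. CCNE2, a G1/S cyclin, was among the 12 largest falls (-2.49, from 69.7 to 112.1 normalized counts in the single libraries to 9.66 and 21.3), although 37.1% of its exonic bases are shared with other annotated genes. ZNF367 (-2.56), a zinc finger factor, and FAM111B (-2.42), a protease-domain protein, were also among them. In bulk RNA, fewer cycling cells and less of these RNAs per cell cannot be told apart.

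Mitosis genes fell to nearly the same extent. Of 24 tested members 21 fell and none rose (median -1.30). By edgeR 17 fell, and without replicate 1 or 2 of YAPi_TAZi 7 and 5 did. TOP2A, topoisomerase II alpha, had 975.1 and 1261.0 normalized counts in YAPi, 1044.0 and 1190.8 in TAZi, and 334.0 and 382.0 in the double knockdown (log2 fold change -1.64 ± 0.13, adjusted p = 1.3e-31). CDK1, the mitotic kinase, ANLN, a cytokinesis scaffold, and CENPF, a kinetochore protein, fell as well (log2 fold changes -1.91, -1.43 and -1.08). PLK1 (-1.28), AURKA (-0.64) and FOXM1 (-0.83) were the 3 members not called (DESeq2 adjusted p = 0.063, 0.024 and 0.067).

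All 14 tested members of the replication-dependent histone list fell (median -1.57), and among genes with histone symbols of the H1, H2A, H2B, H3 and H4 clusters 32 of 38 tested fell and none rose. By edgeR 13 of the 14 fell, and without replicate 1 or 2 of YAPi_TAZi 11 and 9 did. H1-4 had 1242.3 and 985.1 normalized counts in YAPi, 1093.8 and 832.6 in TAZi, and 367.1 and 345.2 in YAPi_TAZi. For H2BC11, 234.9 to 304.7 in the single libraries stood against 77.3 and 44.5. H3C14, H3C15, H3C13 and H2AC4 were among the 12 largest falls (-2.45, -2.45, -2.44 and -2.42). Histone genes are near-identical copies. H3C14 and H3C15 had the same estimate in every library, so the reads were shared between them and neither value belongs to 1 gene. Among called genes not annotated as protein-coding and averaging 50 or more normalized counts, ENSG00000274267.1 (-2.42) and ENSG00000278272.1 (-2.10) had the largest changes. These identifiers were not matched in the annotation used here, so whether they are protein-coding genes was not determined. C19orf48P, annotated as a transcribed pseudogene, came next (-1.81). Below that level, 2 unnamed called genes with mean normalized counts of 22.6 and 27.3 had larger estimates (-2.96 and -2.71).

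The promoters of these cell cycle genes hold other motifs. For DNA replication genes the E2F motif was searched as TTTNGCGC, for mitosis genes the cell cycle homology region as TTTGAA, and for histone genes the TATA box as TATAAA. The CCAAT box, bound by NF-Y, was searched in all by that name's letters. Both strands were searched. Below, capitals mark E2F and CCAAT matches in MCM3, CCAAT and TATA matches in H2BC11, and CCAAT and TTTGAA matches in TOP2A, whichever strand holds them.
MCM3 (chr6:52284693-52284992, minus strand): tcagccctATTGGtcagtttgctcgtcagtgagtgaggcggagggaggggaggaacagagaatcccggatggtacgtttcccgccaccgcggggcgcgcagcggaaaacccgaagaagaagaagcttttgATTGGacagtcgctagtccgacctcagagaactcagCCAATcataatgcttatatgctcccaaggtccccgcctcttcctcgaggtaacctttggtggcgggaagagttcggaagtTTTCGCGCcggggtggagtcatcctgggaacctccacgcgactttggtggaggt
H2BC11 (chr6:27132746-27133045, minus strand): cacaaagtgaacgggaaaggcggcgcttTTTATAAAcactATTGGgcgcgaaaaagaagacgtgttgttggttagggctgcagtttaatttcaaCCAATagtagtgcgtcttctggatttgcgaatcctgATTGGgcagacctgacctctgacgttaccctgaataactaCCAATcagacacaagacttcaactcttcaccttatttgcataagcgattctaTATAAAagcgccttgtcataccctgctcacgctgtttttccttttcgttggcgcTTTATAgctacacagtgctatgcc
TOP2A (chr17:40417847-40418146, minus strand): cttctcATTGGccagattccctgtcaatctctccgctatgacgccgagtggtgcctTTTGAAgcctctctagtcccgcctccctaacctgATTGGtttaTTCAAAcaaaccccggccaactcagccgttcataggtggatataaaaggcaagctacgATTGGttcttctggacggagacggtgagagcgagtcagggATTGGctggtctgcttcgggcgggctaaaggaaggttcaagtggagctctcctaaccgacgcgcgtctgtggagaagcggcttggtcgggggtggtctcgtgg
MCM3 held an E2F match 4 bases before its start, H2BC11 a TATA match 28 bases before its start, and TOP2A 4 CCAAT boxes. In H2BC11 a TATA match overlaps another on the opposite strand. The E2F letters were in 10 of 21 promoters found for the replication list (47.6%), in 38 of 287 for genes that fell (13.2%), and in 3.38% of tested genes. CCAAT was in 56.1% of genes that fell and TTTGAA in 29.3%, against 37.8% and 9.48% of tested genes and 37.5% and 4.46% of genes that rose. Of 13 histone promoters found 12 held CCAAT and 10 TATAAA, where 5.26% of tested genes held TATAAA. Over all promoters listed, the shares were 1.83% for TTTNGCGC, 35.7% for CCAAT and 15.4% for TTTGAA, and 3264 of 27305 promoters held TATAAA. For the mitosis list 19 of 24 promoters were found, too few to give a share.

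Of 10 tested G1 cyclins and CDK inhibitors 2 rose and 3 fell (median -0.77), while edgeR called 1 higher and none lower. CDKN1A, the p21 inhibitor of cyclin-dependent kinases, had 562.6 and 484.1 normalized counts in YAPi, 465.8 and 380.1 in TAZi, and 1200.8 and 1042.5 in YAPi_TAZi (log2 fold change 1.25 ± 0.16, adjusted p = 3.2e-12). Both double libraries were above every single library, as for 134 of the 135 genes that rose. CDKN1B, the p27 inhibitor, also rose (0.70, adjusted p = 0.0093), and CCND1 (-0.89), MYC (-1.27) and RBL1 (-1.19), the cyclin D1, MYC and p107 genes, fell. CCND3 and CDK4 had log2 fold changes of 0.09 and -0.09, and RB1 and CDKN2C, which restrain the cycle as p107 does, -0.75 and -0.79, none of them called. CCND1 was higher in YAPi than in TAZi (1101.8 and 1067.9 against 813.4 and 779.8 normalized counts), and both double libraries were below that (491.4 and 521.3). Of 9 tested p53 targets CDKN1A and TP53INP1 (1.47) rose and none fell, and the list's median was 0.29. Of 13 tested BCL2 family and caspase inhibitor genes BCL2L1 fell (-0.74, with 41.3% of its exonic bases shared with another gene) and MCL1 and BIRC2 were not called (-0.25 and -0.45).

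**Figure D3:**
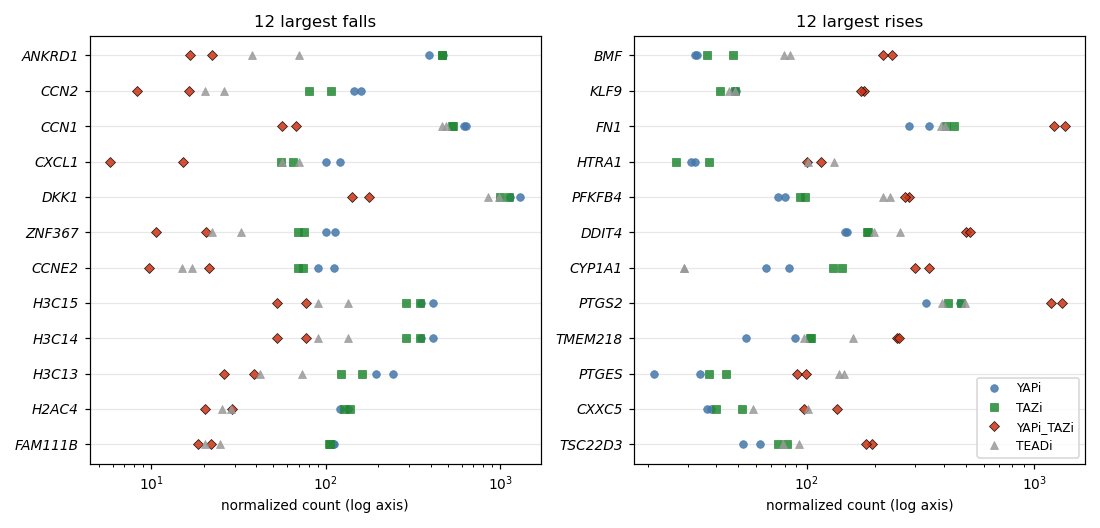
Normalized counts (log axis) in each library of the 12 protein-coding genes that fell most and the 12 that rose most in YAPi_TAZi (red diamonds) against YAPi (circles) and TAZi (squares), with TEADi (triangles) beside them. These genes were selected for both double libraries lying outside the single ones, so the gap between red and coloured points is the selection itself, and the triangles are the part it did not use.

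The largest rise was that of BMF (ENSG00000104081.13, GRCh38 chr15:40087890-40108892), which encodes a pro-apoptotic BH3-only protein, with 32.2 and 32.9 normalized counts in YAPi, 47.5 and 36.6 in TAZi and 237.4 and 216.6 in the double knockdown. It was 6.11-fold higher (log2 fold change 2.61 ± 0.29, adjusted p = 6.5e-17). FN1 (ENSG00000115414.18, GRCh38 chr2:215360440-215436073), the fibronectin gene, rose from 346.2 and 280.3 in YAPi and 442.6 and 407.5 in TAZi to 1359.5 and 1223.4, a 3.5-fold rise. PTGS2, the inducible cyclooxygenase, went from 333.5 to 475.8 in the single libraries to 1189.7 and 1323.0, and PTGES, a prostaglandin E synthase, from 21.4 to 44.3 to 91.1 and 99.6 (log2 fold changes 1.57 and 1.48). PTGES was not called by edgeR or with effective length offsets (1.45, adjusted p = 0.014). KLF9 (1.91), DDIT4 (1.62) and TSC22D3 (1.47) were among the 12 largest rises. DDIT4, an inhibitor of mTORC1, had 147.7 to 186.6 normalized counts in the single libraries and 503.8 and 521.3 in the double ones. The others were HTRA1 (1.76), a secreted serine protease, PFKFB4 (1.67), which sets fructose-2,6-bisphosphate, CYP1A1 (1.61), an aryl hydrocarbon receptor target, TMEM218 (1.52), and CXXC5 (1.47), an inhibitor of WNT signalling. CYP1A1 differed between the single knockdowns too, with 66.3 and 83.7 in YAPi and 142.5 and 130.2 in TAZi, and reached 345.1 and 299.8 in YAPi_TAZi.

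Of 22 tested glycolysis and hypoxia genes 6 rose and none fell (median 0.33): PFKFB4, NDRG1 (1.07), SLC2A3 (1.02), VEGFA (0.97), BNIP3 (0.82) and P4HA1 (0.77). VEGFA, the vascular growth factor, had 698.2 to 1008.2 normalized counts in the single libraries and 1732.2 and 1510.6 in the double ones. The glycolytic enzymes PKM, GAPDH and ENO1 had log2 fold changes of 0.35, 0.25 and -0.04 and were not called against the single knockdowns together. In the fit with 3 groups 8 of the 22 genes were called higher and 1 lower than YAPi, and 12 higher and 1 lower than TAZi. Against the single knockdowns together 11 were higher and 0 lower at an unadjusted p under 0.05. By edgeR 4 members of the list rose, and without replicate 1 or 2 of YAPi_TAZi none did at the same threshold. NQO1 (0.67), a quinone reductase, and FTH1 (0.90), the ferritin heavy chain, rose among 15 tested NRF2 and glutathione genes (median 0.20), although 63.2% of the exonic bases of FTH1 are shared with another gene.

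CXCL1 and CXCL8, neutrophil chemokines, fell (log2 fold changes -3.11 and -2.24). CXCL8 had 141.4 to 179.8 normalized counts in the single libraries and 34.5 and 34.8 in the double ones, and CXCL1 had 100.4 and 121.0 in YAPi, 64.9 and 55.6 in TAZi, and 15.2 and 5.80 in YAPi_TAZi. IL11, a cytokine of the IL6 family, fell (-1.12), and of 14 tested chemokines and cytokines 3 fell and PTGS2 rose (median -0.71), while edgeR called 1 lower. IL6 itself had a log2 fold change of -1.30 and was not called against the single knockdowns together (DESeq2 adjusted p = 0.63). In the fit with 3 groups 6 of the 14 genes were called lower and 1 higher than YAPi, and 5 lower and 2 higher than TAZi. DKK1 (ENSG00000107984.9, GRCh38 chr10:52314281-52318042), a secreted WNT antagonist, went from 997.7 to 1305.5 in the single libraries to 142.2 and 177.0 (log2 fold change -2.84 ± 0.16, adjusted p = 1.3e-63). Of 16 tested TGF-beta genes TGFB2 and FST (-2.73), which encodes follistatin, fell and LTBP1 (0.99), a latent TGF-beta binding protein, rose. FST had 29.3 to 37.3 normalized counts in the single libraries and 4.14 and 5.80 in the double ones, from 3 and 6 raw counts. With effective length offsets FST and LTBP1 lost their call (-2.38, adjusted p = 0.037, and 0.90, adjusted p = 0.052), and LTBP1 did so with any 1 library left out (0.89 to 1.09).

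In the urokinase and protease list 3 of 15 tested members fell and none rose (median 0.13). They were the urokinase gene PLAU (-1.32), the tissue plasminogen activator gene PLAT (-1.58) and the metalloprotease ADAMTS1 (-3.14), whose double libraries held 4 and 3 raw counts. PLAU stood at 569.4 to 838.6 normalized counts in the single libraries and at 285.7 and 280.5 in the double ones, with 31.0% of its exonic bases shared with another gene. By edgeR 2 members of the list fell. Of 17 EGF receptor and MAPK feedback genes the ligand HBEGF (-1.63) and the receptor EPHA2 (-1.25) fell and the feedback inhibitors DUSP4 (1.04) and SPRED1 (1.02) rose. Of 22 matrix and integrin genes CCN1, CCN2, THBS1 (-0.63) and ITGA6 (-0.68) fell and FN1 rose (median -0.19). By edgeR 3 members of the list fell, ITGA6 not among them, and 1 rose. Fibronectin and thrombospondin 1 (THBS1, 9948.2 to 12031.2 in the single libraries and 7298.6 and 6995.8 in the double ones) moved in opposite directions.

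**Figure D4:**
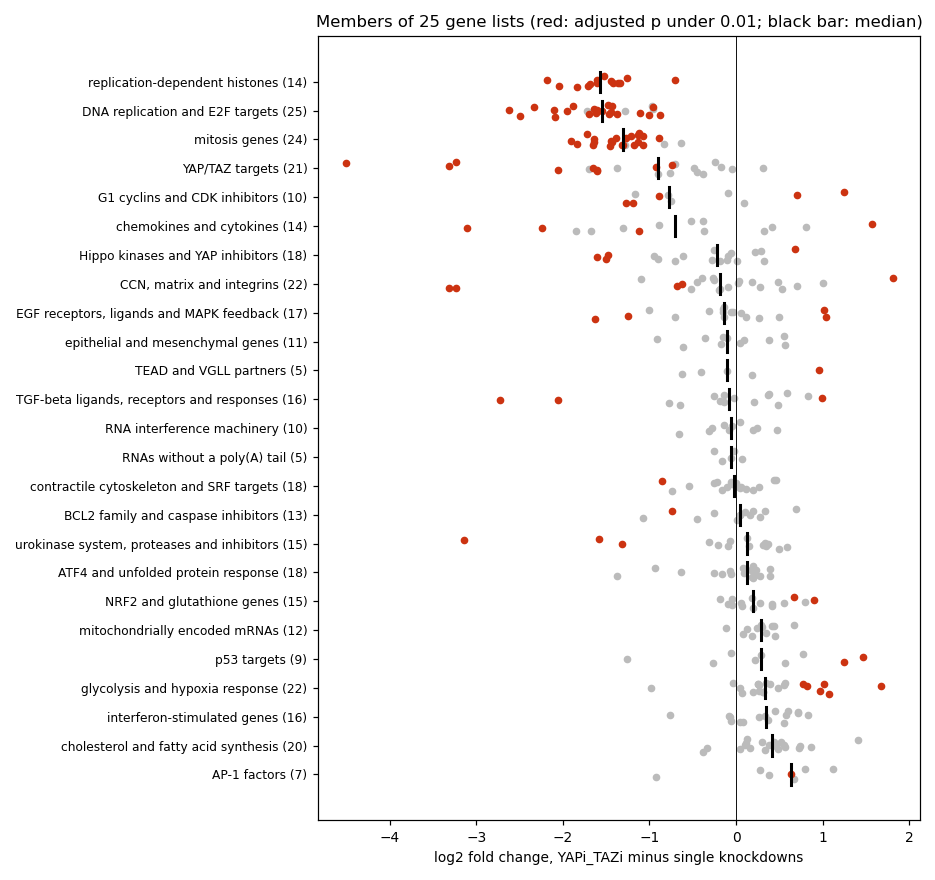
Log2 fold change of YAPi_TAZi over the single knockdowns for each tested member of 25 gene lists, ordered by the list's median (black bar), with called genes (DESeq2 adjusted p under 0.01) in red and the number tested in parentheses. Histone, replication and mitosis lists sit at medians of -1.57, -1.55 and -1.30 with most points red, and most other lists straddle 0.

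Other lists had few calls or none. By DESeq2 none of 18 tested ATF4 and unfolded protein response genes, 12 mitochondrially encoded mRNAs or 11 epithelial and mesenchymal genes was called, with medians of 0.13, 0.29 and -0.10, and VIM had a log2 fold change of -0.10. At an unadjusted p under 0.05 these lists held 1, 2 and 1 genes that were higher and 3, 0 and 3 that were lower, and edgeR called none. In the fit with 3 groups 5 ATF4 and unfolded protein response genes were called higher and 1 lower than YAPi, and 2 higher and 1 lower than TAZi (17 tested). Of the epithelial and mesenchymal genes 1 was higher and 3 lower than YAPi, VIM among these (-0.25, adjusted p = 0.0019), and 3 of 8 tested were lower than TAZi. Of the mitochondrial mRNAs 1 was higher than TAZi. Of 18 contractile and SRF genes CNN3 fell (-0.86) and ACTB and FLNA were at -0.06 and 0.11. Of 20 sterol and fatty acid genes DESeq2 called none (list median 0.41, with ACLY at 0.10), 5 were higher and 0 lower at an unadjusted p under 0.05, and edgeR called 1 higher. In the fit with 3 groups 8 of these 20 genes were called higher than YAPi, 3 higher than TAZi and none lower. Lists that report on siRNA exposure or on RNA selection held no call by DESeq2, here or against either single knockdown in the 3-group fit. These were 0 of 16 interferon-stimulated genes (median 0.35, with EIF2AK2 at 0.33 and IFIT3 at 0.45), 0 of 10 genes of the RNA interference machinery (median -0.06, with DICER1 at -0.08 and XPO5 at -0.31) and 0 of 5 RNAs without a poly(A) tail (median -0.06, with RN7SL1 at 0.07 and RN7SL2 at -0.06). At an unadjusted p under 0.05 these lists held 1, 0 and 0 genes higher and 0, 1 and 0 lower, and edgeR called none. Between the single knockdowns themselves DICER1 was called higher in YAPi (0.43). Summed over the interferon list, replicate 1 had 174.1 TPM in YAPi_TAZi, 125.7 in YAPi and 134.4 in TAZi. Replicate 2 had 324.1, 232.2 and 261.4 TPM. RN7SL1 followed the replicate number, with 46539.5 to 56202.6 normalized counts in replicate 1 libraries and 86538.3 to 94633.1 in replicate 2.

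TEADi libraries, which were not part of the comparison, gave a further reading. TEAD1 stood at 194.7 and 192.2 normalized counts there, TEAD2 at 2.61 and 1.76 and TEAD4 at 0 and 0.878, each below every single knockdown library, while TEAD3 stood at 44.4 and 26.3 beside 34.7 to 49.8 in the single knockdowns. YAP1 and WWTR1 stayed at 364.6 to 409.9 and 128.1 to 151.8. Of the 12 genes with the largest falls, 11 were below all 4 single libraries in both TEADi libraries, CXCL1 being the exception, where 19.5% of all tested genes were. Sizes varied among them. ANKRD1 was at 37.9 and 70.2 and CCN2 at 26.1 and 20.2 in TEADi, near the double knockdown, whereas CCN1 was at 487.5 and 466.0 and DKK1 at 848.2 and 987.3, close to the single ones. Of the 12 genes with the largest rises 6 were above all single libraries in both TEADi libraries, where 17.2% of all tested genes were. PFKFB4 (217.0 and 231.7), HTRA1 (132.0 and 101.8) and PTGES (138.5 and 145.7) were among them. KLF9 (48.4 and 45.6), FN1 (388.2 and 403.7) and PTGS2 (393.4 and 497.6) stayed at the single-knockdown level in TEADi, and CYP1A1 was below it, at 28.8 and 29.0. TEADi shares no library with the double knockdown but is compared with the same single libraries, and no test was run.

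The called genes were also read in ER-Src cells, MCF-10A breast epithelial cells with a tamoxifen-inducible v-Src, in separate libraries (2 each of Ctrli, YAPi and TAZi under tamoxifen) that the choice of genes did not use. There, knockdown of YAP alone against its control lowered 138 and raised 18 of the 352 tested genes that fell in the double knockdown (39.2% and 5.11%, median log2 fold change -0.43), where 5.12% of all tested genes fell and 5.04% rose. With the replicate block 96 were lowered (27.3%) and 11 raised, and with edgeR 106 (30.2%) and 15. Knockdown of TAZ alone lowered 42 and raised 8 of 351 (median -0.19), where 1.68% of all genes fell and 1.75% rose, and with the replicate block the 42 became 9. Of the genes that rose in the double knockdown, 40 of 134 rose and 11 fell with YAPi in ER-Src (26 and 5 with the block), and 14 of 130 rose and 5 fell with TAZi (6 of 128 and 3 with the block). The YAPi and TAZi comparisons share their control libraries.

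By list, values in ER-Src are from the fit without the block. All 24 mitosis genes fell with YAPi (median -0.95) and 9 with TAZi (median -0.38), and 15 of 18 histones fell with YAPi (median -0.99) and 2 with TAZi (median -0.33). DNA replication genes fell in 9 of 26 cases with YAPi (median -0.31) and in none with TAZi (median -0.02). CCN1 fell with both (-1.29, adjusted p = 5.2e-11, and -0.81, adjusted p = 0.0011). ANKRD1 (-1.01 and -1.13) and CCN2 (-1.03 and -1.35) were not called. CDKN1A (1.17 and 0.61) and HTRA1 (1.59 and 0.83) rose with both siRNAs. Several genes moved the other way in ER-Src. CXCL1 rose with YAPi (1.40) and TAZi (1.29), as did CXCL8 (1.15 and 0.59), F3 rose with YAPi (1.38), DDIT4 fell with both (-1.39 and -0.66), NDRG1 fell with both (-2.12 and -1.12), and KLF9 fell with YAPi (-1.16). The cell line, the reference (control siRNA in place of single knockdowns) and the treatment all differ between these comparisons, and their parts cannot be told apart.

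**Figure D5:**
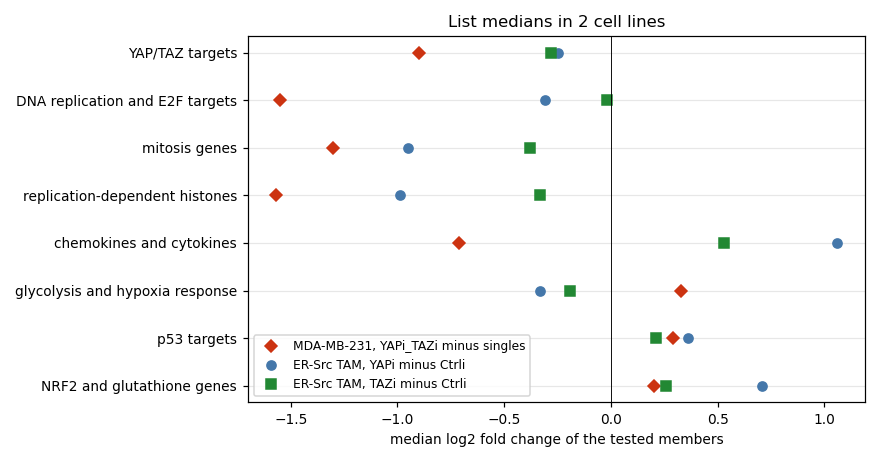
Median log2 fold change of the tested members of 8 gene lists in MDA-MB-231 (double against single knockdowns, red) and in tamoxifen-treated ER-Src cells (YAPi or TAZi against Ctrli, blue and green). Mitosis and histone medians are below 0 in all 3, while the chemokine list is at -0.71 in MDA-MB-231 and at 1.06 and 0.53 in ER-Src, and the glycolysis and hypoxia list is at 0.33 against -0.33 and -0.19.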

How the data were processed

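RNA was sequenced from 6 MDA-MB-231 libraries (YAPi, TAZi and YAPi_TAZi, n = 2 each), grouped by their titles. Per the study's methods and the labels, total RNA went into TruSeq Ribo Profile libraries, and the authors aligned reads with STAR to GENCODE version 30 (build hg38) and quantified genes with RSEM. The authors deposited expected counts (RSEM's estimates of each gene's reads, not normalized) and TPM, scaled by effective length to a fixed total. The authors also deposited gene and effective lengths, used for offsets.

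Of 61471 identifiers 60725 were Ensembl genes, and 93.1% of these matched GENCODE version 44, the source of symbols and GRCh38 coordinates. RNAs listed as RN7SK, H3C2 and H3C3 were not matched. Expected counts were rounded. DESeq2 (version 1.42.0, R 4.3.3; Wald test, default size factors and independent filtering) fitted double against single knockdown blocked on the replicate number, and a fit with 3 groups gave the comparisons with each single knockdown. Calls had a Benjamini-Hochberg adjusted p under 0.01, as in the study's methods. Fold changes are unshrunken log2 values with SE, normalized counts are counts divided by size factors, and TEADi was scaled to the same reference. ER-Src knockdowns were each run separately against Ctrli. In the 3 groups, deviations of same-numbered libraries from the group mean correlated at 0.75 to 0.77 over 6928 genes, and the lengths differed by number, so the numbers pair the samples. Nothing in the labels says that replicates are separate cultures, so p-values measure the spread between libraries. The scripts were tested on simulated data.

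The members and gene lists were chosen with earlier results of these data known, and 3 members of the lists are not reported here and left out of their counts. Named genes were YAP1, WWTR1, TEAD1 to TEAD4, the target list, the 12 largest rises and 12 largest falls among protein-coding genes (called, averaging 50 or more normalized counts, groups without overlap), the 3 largest changes among other genes by the same criteria, and per list up to 4 called members by adjusted p or, with under 2, the 2 most abundant ones. CDC6, CDC45, MCM7, MCM10, GINS2, E2F1, PLK1, AURKA, FOXM1, CDKN1B, SLC2A3, P4HA1, PKM, GAPDH, ENO1, IL6, ITGA6, CCND3, CDK4, RB1, CDKN2C and FOSL1 were named after their values were seen. Alternatives were edgeR (version 4.0.16), TMM size factors, size factors from protein-coding genes, a mean count of at least 10, no filter, effective length offsets, no replicate block, 3 groups, TEADi in the fit, a threshold of 0.05 and each library left out.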

Additional observations from a re-analysis of the deposited data

Results flagged for a closer look

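Of the genes named by the rules above, 21 differed between YAPi and TAZi themselves in the DESeq2 fit with 3 groups and the replicate number as a block (adjusted p under 0.01, n = 2 against 2), where 2.55% of all tested genes were higher and 1.49% lower in YAPi. Genes named after their values were seen are not in this count. The genes that differed do not have 1 level in the single knockdowns that the double knockdown could be set against. The values are log2 differences, YAPi minus TAZi. The targets themselves stood at -3.03 for YAP1 and 3.73 for WWTR1. Lower in YAPi were CYP1A1 (-0.85), the cytokine IL11 (-0.68), AMOTL2 (-0.58), FN1 (-0.45), the endoplasmic reticulum chaperones HSP90B1 (-0.33) and CALR (-0.28), and FTH1 (-0.31). Higher in YAPi were the sterol regulator INSIG1 (1.46), and the listed YAP/TAZ targets AXL (0.94), PTPN14 (0.59), MYOF (0.49) and NT5E (0.4). Also higher were PLAU (0.47) of the urokinase system, CCND1 (0.45), MCL1 (0.45), DICER1 (0.43), FLNA (0.4), VEGFA (0.32) and VIM (0.31). No control siRNA library of the same kind was compared, so which of the single knockdowns moved each gene was not tested. With 2 libraries in each group, no single library was tested for standing apart from its group.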

How the results depend on the processing

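The count of genes that rose against the single knockdowns together was 135, and 355 fell. Fitted as 3 groups these were 434 and 733, 489 of the 490 genes keeping their call, and a threshold of 0.05 gave 238 higher. edgeR called 95 and 249 (334 of these 344 shared), and without the replicate block the counts were 154 and 379. Leaving out 1 library gave 9 to 77 higher and 64 to 222 lower. Of 74 called named genes edgeR kept 62, effective length offsets 67, and the fit without the block all 74. The 12 lost with edgeR were CYP1A1, PTGES, CXCL1, VGLL4, MYC, CCND1, RBL1, BCL2L1, IL11, PLAT, AJUBA and FJX1, at adjusted p of 0.01 to 0.034. The 7 lost with effective length offsets were TMEM218, PTGES, JUN, BCL2L1, LTBP1, FST and PLAT, at adjusted p of 0.014 to 0.072. Genes named after their values were seen are not among the 74. Of those, at least CDKN1B, SLC2A3, P4HA1 and ITGA6 were not called by edgeR, and CDKN1B was also lost with effective length offsets. Without replicate 1 or 2 of YAPi_TAZi 34 and 35 kept their call, and no called gene turned its direction.

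Against YAPi (373 higher, 709 lower) edgeR called 805 and 1183, a separate run with the block 219 and 443, and effective length offsets 118 and 279. Leaving out 1 library gave 46 to 93 and 173 to 241. Against TAZi (363 and 606) edgeR called 758 and 1012, effective length offsets 132 and 262, a separate run with the block 217 higher, and no replicate block 231 higher, with 57 to 90 and 159 to 209 when 1 library was left out. WWTR1 against YAPi was -2.52 in the separate run with the block (adjusted p = 0.022), -1.82 with effective length offsets (adjusted p = 0.13) and -1.92 without replicate 2 of YAPi_TAZi, the other left-out libraries giving no adjusted p.

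Among the values recomputed, those that turned their sign were uncalled ones. YAP1 against YAPi was 0.01 in the separate run and with a mean count of at least 10, and -0.16 to 0.17 with 1 library left out. Leaving out 1 library gave -0.01 to 0.06 for TEAD2, -0.1 to 0.24 for MT-CO3, -0.16 to 0.03 for RN7SL2 and -0.18 to 0.04 for DICER1.

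For ER-Src with the replicate block, genes that rose in MDA-MB-231 had 26 higher and 5 lower with YAPi, and 6 and 3 with TAZi. Genes that fell had 11 higher and 96 lower with YAPi, and 3 higher and 9 lower with TAZi. With edgeR the genes that rose had 32 higher and 6 lower with YAPi, and 5 higher and 2 lower with TAZi. The genes that fell had 15 higher and 106 lower with YAPi, and 5 higher and 11 lower with TAZi. The cause of these shifts was not tested. Depth limits genes with few reads, such as WWTR1, FST and ADAMTS1 in the double libraries.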
